A study of Mus musculus with 8 samples.

Results

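Expression of 10 transcription factors of the hair matrix and hair shaft was followed through the 4 groups of the study: Foxn1, Foxq1, Lef1, Msx1, Msx2, Dlx1, Dlx2, Dlx3, Dlx4 and Sp6. They were chosen by gene name, from the rows that carry these names in both deposited tables, and all 10 were found among 32693 genes that had an expression value in at least 1 table. All 10 also passed the filter on low read numbers in both tables. RNA came from hair matrix keratinocytes of mice, sorted by flow cytometry at postnatal day 4.5. The groups were Tet2/Tet3 double knockout carrying Krt14-Cre after 5-aza (DKO, 5-aza), wild type after 5-aza (WT, 5-aza), the same double knockout without treatment (DKO, untreated) and wild type without treatment (WT, untreated), with 2 libraries each and 8 in all. The 5-aza mice had received 50 µg under the skin at postnatal day 2.5. Krt14-Cre expresses the recombinase from the keratin 14 promoter, which is active in keratinocytes and is not a driver for mesenchymal cells, melanocytes or immune cells.

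The hair matrix is a pool of proliferating keratinocytes in the follicle bulb, whose daughters stop dividing, move upwards and build the shaft and the inner root sheath. LEF1 is an HMG-box factor that binds DNA together with β-catenin and carries Wnt signals in the precortex. The homeodomain factors MSX1, MSX2 and DLX1 to DLX4 act in tissues that receive BMP and Wnt signals. The forkhead factors FOXN1 and FOXQ1 act later, in cells that are turning into shaft: Foxn1 is mutated in nude mice, whose hairs break at the skin surface, and Foxq1 is mutated in satin mice, whose hair medulla is malformed. Sp6 encodes a zinc finger factor, also called epiprofin, that is needed in mice for normal teeth and skin appendages. TET enzymes oxidise 5-methylcytosine, the methylated base found mostly at CG dinucleotides, and 5-aza inhibits DNA methyltransferases, so both interventions act on CG methylation. Methylation itself is not part of the values used here.

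Because both interventions act on CG dinucleotides, the promoters of the factors are shown with every CG in capitals. RefSeq promoter windows on GRCm38.p6, reaching from 250 bases before to 50 bases after a gene's start, were matched for 6 of the 10 factors: Foxn1, Lef1, Msx1, Msx2, Dlx1 and Dlx2. These starts can differ from the GENCODE M21 coordinates given below. The Foxn1 window lies wholly upstream of the GENCODE gene, which begins at 78386558 on the minus strand. Lef1 windows 1 and 2 end at 131110346 and 131110372, before the GENCODE start at 131110471. The 3 printed are those of Foxn1, Msx1 and Dlx2, whose DKO libraries both lay above both WT libraries in both tables. The share of all genes that did so in both tables was not counted. In single tables it was 28.0% after 5-aza and 24.1% untreated. All 3 genes are on the minus strand, and each window is written 5′ to 3′ in the direction of transcription: Foxn1 at chr11:78386559-78386858, Msx1 at chr5:37824536-37824835 and Dlx2 at chr2:71546705-71547004.
Foxn1: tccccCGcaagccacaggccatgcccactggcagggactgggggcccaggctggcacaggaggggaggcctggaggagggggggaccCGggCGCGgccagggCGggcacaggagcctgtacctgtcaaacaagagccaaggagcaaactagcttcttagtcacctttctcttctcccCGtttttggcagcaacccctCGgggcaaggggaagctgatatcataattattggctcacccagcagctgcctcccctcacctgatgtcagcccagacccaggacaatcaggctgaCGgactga
Msx1: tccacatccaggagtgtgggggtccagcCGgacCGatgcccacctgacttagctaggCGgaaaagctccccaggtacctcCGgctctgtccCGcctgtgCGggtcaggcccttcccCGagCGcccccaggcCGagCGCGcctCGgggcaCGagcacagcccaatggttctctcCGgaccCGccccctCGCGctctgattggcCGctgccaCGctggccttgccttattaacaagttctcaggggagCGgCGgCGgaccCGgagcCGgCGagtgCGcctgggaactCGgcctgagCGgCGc
Dlx2: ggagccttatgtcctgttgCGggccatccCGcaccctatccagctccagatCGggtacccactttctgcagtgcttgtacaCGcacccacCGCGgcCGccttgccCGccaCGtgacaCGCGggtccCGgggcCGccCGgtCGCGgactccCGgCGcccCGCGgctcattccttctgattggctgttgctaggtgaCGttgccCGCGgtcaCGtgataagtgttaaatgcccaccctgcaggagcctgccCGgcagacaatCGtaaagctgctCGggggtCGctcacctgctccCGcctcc
The Foxn1 window held 8 CG dinucleotides, against 29 in Msx1 and 29 in Dlx2. Among 32851 mouse promoter windows of the same length the median was 7, with quartiles of 3 and 20, so Foxn1 lay near the middle and 51.4% of windows held fewer. The Msx1 and Dlx2 windows lay in the CG-rich tail, where 87.1% of windows held fewer. Of the others, Dlx1 held 27 (84.5% of windows with fewer), Msx2 held 22 (76.9%) and the 4 windows of Lef1 held 18 (70.3%), 21 (75.2%), 8 (51.4%) and 5 (38.0%).

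**Figure D1:**
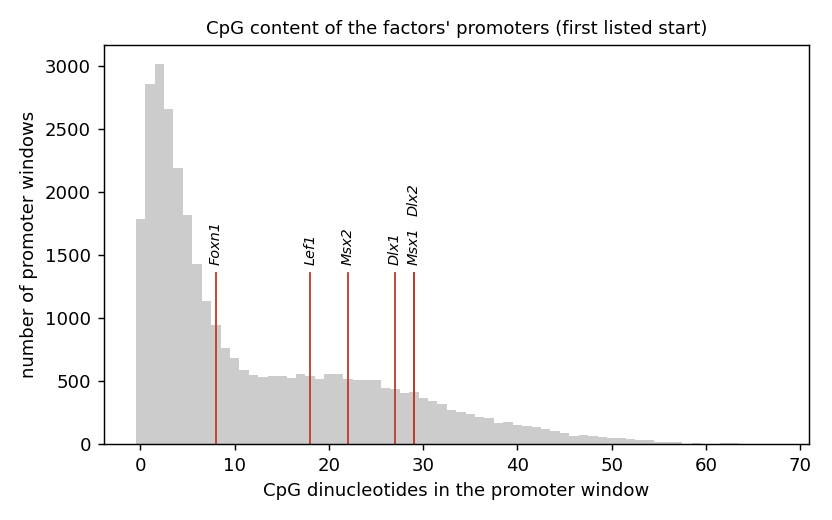
Histogram of the number of CG dinucleotides (x axis) in 32851 mouse RefSeq promoter windows of 300 bases (y axis, number of windows), with a vertical line at each of the 6 factors that were matched. Foxn1 stands at 8, near the median of 7, and the other 5 factors, Lef1 by the first of its 4 windows, stand at 18 to 29; later Lef1 windows hold 21, 8 and 5.

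Short motifs were counted in the same windows on both strands, as letters only. The homeodomain word TAATTA occurred once in the Foxn1 window and once in the Msx2 window, and 5.29% of all promoter windows held it. TAATTG (8.0% of all windows), and the LEF1 words CTTTGAA (5.14%) and CTTTGTT (5.85%), had 0 matches in every window of the 6 factors. The SP word GGGCGG occurred once in the windows of Foxn1, Msx1, Msx2, Dlx1 and Dlx2. It also occurred once in each of Lef1 windows 1, 2 and 3 and not in window 4, and 35.7% of all windows held it. The homeodomain words share their first letters and cannot both match at the same position, and the LEF1 words share theirs too.

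On the genome (GRCm38, coordinates as in the deposited tables, all 10 annotated as protein coding and placed identically in GENCODE M21), 4 of the factors are on chromosome 11. These are Foxn1 (78357577 to 78386558, minus strand), Dlx3 (95120119 to 95125296, plus strand), Dlx4 (95140447 to 95146263, minus strand) and Sp6 (97013394 to 97024734, plus strand). Dlx3 and Dlx4 face each other, with 15150 bases and 0 annotated genes between them. Dlx1 (chromosome 2, 71528113 to 71533981, plus strand) and Dlx2 (71543408 to 71546754, minus strand) form the same kind of convergent pair, with 9426 bases and 0 genes between. Foxq1 (31556134 to 31560976, plus strand) and Msx2 (53466884 to 53473074, minus strand) are on chromosome 13. Lef1 is on chromosome 3 (131110471 to 131224356, plus strand) and Msx1 on chromosome 5 (37820485 to 37824583, minus strand). Of the 10 factors, 5 overlap another annotated gene, and the strand setting of the counting is not given in the sources used here, so reads of such pairs cannot be told apart. The pairs with overlapping genes at a comparable level were Dlx1 with the antisense gene Dlx1as (1.53 to 2.46 FPKM after 5-aza and 1.45 to 2.71 FPKM untreated), Dlx4 with Dlx4os (6.39 to 7.45 and 8.73 to 9.74 FPKM) and Lef1 with Gm42449 on its own strand (4.17 to 6.94 and 3.36 to 6.01 FPKM).

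Values are FPKM, reads per kilobase of gene scaled to the library's total. Library totals were 39493929 to 58353167 reads after 5-aza and 19528602 to 22837436 reads untreated, and listed genes held 38.4% to 42.4% and 55.8% to 62% of them. The scale of the 2 tables thus differs, and levels after 5-aza are set beside untreated levels with no test between them. Tet3, one of the deleted genes, whose gene-level value includes any exons left by the deletion, had 6.54 and 5.99 FPKM in DKO and 10.4 and 11.5 FPKM in WT after 5-aza, and 6.92 and 7.31 FPKM in DKO and 11.8 and 11.4 FPKM in WT untreated. The DKO to WT ratio of Tet2 was 0.826 after 5-aza and 0.809 untreated. Hair matrix markers (11 of 12 listed, none at 0 in all libraries) summed to 799 and 806 FPKM in DKO and 593 and 574 FPKM in WT after 5-aza, and to 1054 and 1157 FPKM in DKO and 636 and 815 FPKM in WT untreated. That list includes Lef1, Msx2 and Dlx3 themselves, and the basal keratins Krt5 and Krt14, which are also on the basal list. Without Krt5 and Krt14 the sums were 398 and 348 FPKM in DKO and 314 and 345 FPKM in WT after 5-aza, and 335 and 370.1 FPKM in DKO and 266 and 358 FPKM in WT untreated, so most of the gap lay in those 2 keratins. Markers of other cells were present too. Untreated libraries stood apart by replicate number in sex-linked transcripts: Xist was at 74.4 and 1.19 FPKM in DKO replicates 1 and 2 and at 82.1 and 0.327 FPKM in WT replicates 1 and 2. After 5-aza, sex-linked transcripts went with genotype instead: Xist was at 4.60 and 3.65 FPKM in DKO, against 16.9 and 23.1 FPKM in WT (log2 difference -2.03 ± 0.18, limma adjusted p = 0.274), and the Y-linked Ddx3y at 2.08 and 1.997 FPKM in DKO, against 1.24 and 0.917 FPKM in WT (0.55 ± 0.10, limma adjusted p = 0.355). The part of this imbalance in any DKO to WT difference after 5-aza was not tested. After 5-aza, the 8 melanocyte markers summed to 29.4 and 139.7 FPKM in DKO replicates 1 and 2. They summed to 97.6 and 22.1 FPKM in WT replicates 1 and 2, so DKO replicate 2 and WT replicate 1 stood apart. The same libraries were the highest for dermal fibroblast markers, at 98.9 and 142.7 FPKM in DKO and 146.7 and 69.5 FPKM in WT. They were also the highest for dermal papilla markers, at 25.9 and 56.6 FPKM in DKO and 78.6 and 34.5 FPKM in WT. Whether libraries came from separate animals is not said in the labels, so p-values measure only the spread between these libraries. In such bulk samples, fewer cells of a type and less RNA per cell cannot be told apart.

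By level, Dlx3 stood far above the other factors. On the deposited FPKM scale Dlx3 had the highest mean of the 10 in all 4 groups and Dlx1 the lowest. Dlx3 ranked 41 among all genes listed in the 5-aza table and 102 in the untreated table. In the DKO groups the order after 5-aza was Dlx3 (117 FPKM), Msx2 (21.6), Dlx2 (16.1), Msx1 (11.5), Sp6 (9.81), Foxn1 (9.60), Lef1 (9.57), Foxq1 (5.28), Dlx4 (5.26) and Dlx1 (1.91). The 4 from Msx1 to Lef1 were not separated, since the library ranges of neighbours overlapped, and neither were Foxq1 and Dlx4. In WT after 5-aza the order was Dlx3 (114 FPKM), Msx2 (19.9), Dlx2 (12.1), Sp6 (10.1), Msx1 (9.64), Lef1 (8.89), Foxn1 (6.49), Dlx4 (5.62), Foxq1 (2.86) and Dlx1 (1.61), and neighbours overlapped from Dlx2 through to Lef1 and between Foxn1 and Dlx4. In untreated DKO the order was Dlx3 (80.6 FPKM), Msx1 (26.4), Msx2 (17.9), Sp6 (16.7), Dlx2 (14.1), Lef1 (8.72), Foxn1 (7.59), Dlx4 (6.60), Foxq1 (1.90) and Dlx1 (1.59), with overlap only of Msx2 with Sp6 and of Foxq1 with Dlx1 among neighbours. In untreated WT it was Dlx3 (80.9 FPKM), Msx1 (19.8), Msx2 (17.0), Sp6 (12.1), Dlx2 (10.2), Lef1 (7.79), Dlx4 (6.66), Foxn1 (3.52), Foxq1 (1.82) and Dlx1 (1.73), with overlap of Msx1 with Msx2, along Sp6, Dlx2 and Lef1, and of Foxq1 with Dlx1. The order of neighbours depends on the gene length behind the FPKM.

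The deposited length equalled the sum of all distinct annotated exons, overlapping exons counted separately, in 9 of the 10 factors, and was longer than that in Lef1 (19456 bases against 9226). It exceeded the merged exon length 2.21 times in Lef1, 1.96 times in Dlx1 and 1.86 times in Sp6, and at most 1.23 times in the other 7. Per merged exon length, Dlx3 kept the highest mean in all 4 groups. Lef1 then had 21.2 FPKM in DKO and 19.7 FPKM in WT after 5-aza, and 19.3 FPKM in DKO and 17.2 FPKM in WT untreated. Foxq1 took the last place from Dlx1 in all groups except DKO after 5-aza. The length is the same for every library, so it does not enter the DKO to WT ratios.

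**Figure D2:**
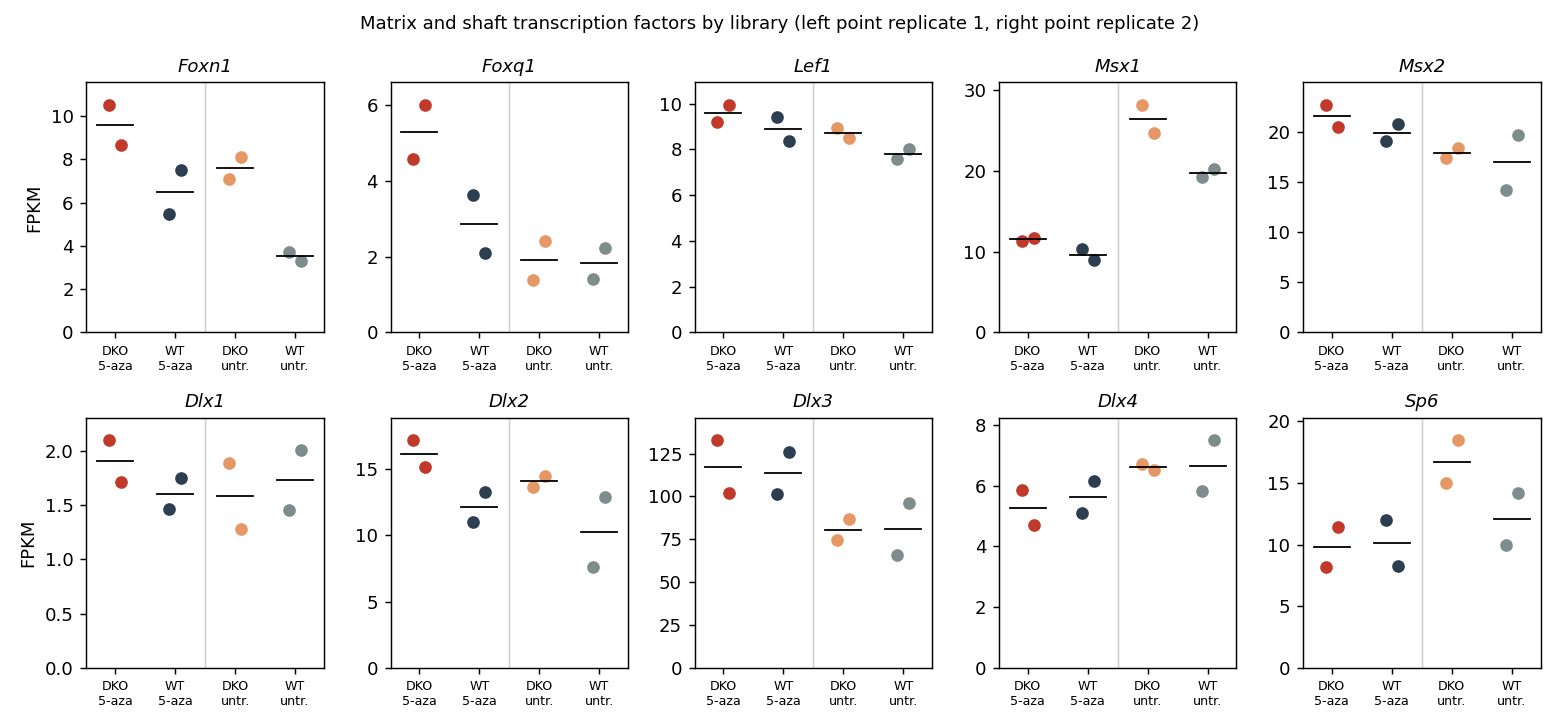
FPKM (y axis, from 0, own scale per gene) of each factor in each library, with DKO left of WT and 5-aza left of untreated; the left point of a pair is replicate 1, the right point replicate 2, and the bar is the mean of 2. Foxn1, Msx1 and Dlx2 have both DKO points above both WT points on both sides of the grey line, which separates the 2 tables.

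Comparing DKO with WT, no factor passed an adjusted p of 0.05 in limma in either table. The count was 0 of 10 after 5-aza (background 0.0%, 0 of 16856 genes tested) and 0 of 10 untreated (background 0.00577%, 1 of 17339 genes), so the test at 2 libraries a group called almost nothing anywhere. Limma's voom on recovered reads also called 0 of 10 in both tables. At an unadjusted p under 0.05, 3 factors were higher in DKO after 5-aza (Foxn1, Foxq1 and Dlx2; background 6.64%) and 2 untreated (Foxn1 and Msx1; background 6.72%), and 0 were lower in either (backgrounds 2.3% and 4.73%). The 5-aza count was 0 when scaled to reads in listed genes, 1 (Foxq1) under median-ratio scaling, 1 (Dlx2) without a filter and 4, Msx1 added, without a variance trend. Without 1 library it was 1 or 2, and the untreated count was 1 (Foxn1) without DKO replicate 1 or DKO replicate 2 and 5 without WT replicate 2. The authors' deposited table called 0 factors higher in DKO after 5-aza (background 0.54%) and 1 untreated, Foxn1 (background 0.793%), and called 0 lower (backgrounds 0.159% after 5-aza and 0.486% untreated).

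The libraries themselves did not overlap for several factors. Both DKO libraries lay above both WT libraries in 4 of 10 after 5-aza (Foxn1, Foxq1, Msx1 and Dlx2; background 28.0%) and in 5 of 10 untreated (Foxn1, Lef1, Msx1, Dlx2 and Sp6; background 24.1%). In 0 of 10 did both DKO libraries lie below both WT libraries (backgrounds 11.6% after 5-aza and 19.3% untreated). The difference was positive in 8 of 10 in each table (backgrounds 62.8% after 5-aza and 53.8% untreated). The median log2 difference over the 10 factors was 0.13 after 5-aza and 0.12 untreated, beside 0.03 and 0.01 over all genes tested. Throughout, a log2 difference is of log2(FPKM + 1), DKO minus WT, ± SE, which understates the change of genes at low FPKM.

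**Figure D3:**
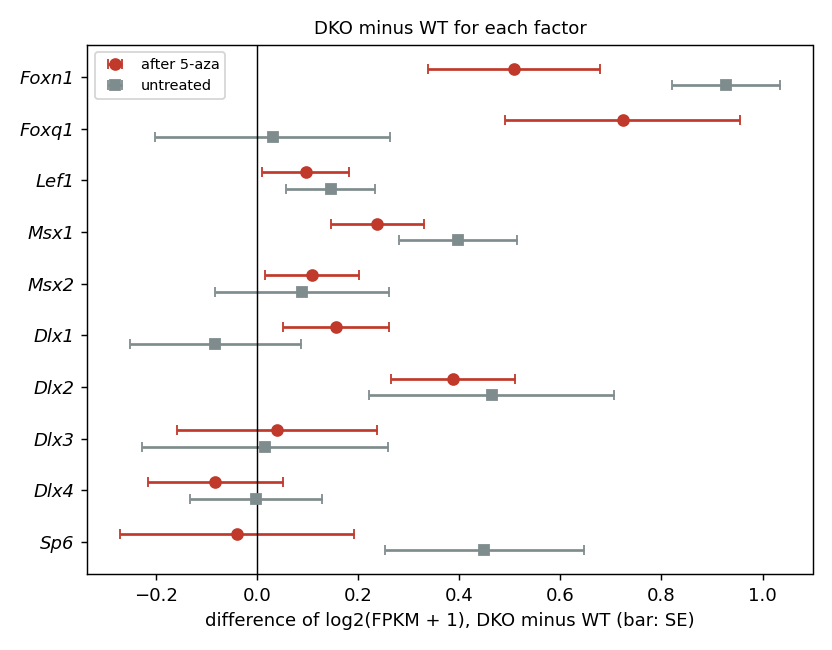
Difference of log2(FPKM + 1), DKO minus WT (x axis), for each factor (y axis), with 5-aza as circles above and untreated as squares below; bars are the limma SE, from 2 against 2 libraries. Foxn1 untreated lies farthest right at 0.93, followed by Foxq1 after 5-aza at 0.72, and Dlx3, Dlx4 and Msx2 lie within 0.11 of 0 in both tables.

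Among the factors of the late shaft programme, Foxn1, which drives shaft keratin genes in mice, had the largest untreated difference of the 10. After 5-aza it had 10.5 and 8.68 FPKM in the DKO libraries, against 5.47 and 7.52 FPKM in the WT libraries, on 827 to 1624 reads. Untreated it had 7.08 and 8.10 FPKM in DKO, against 3.72 and 3.31 FPKM in WT, on 242 to 507 reads. Every DKO library was above every WT library of its table, with a wide gap untreated and a narrow one after 5-aza, where WT replicate 2 lay close to DKO replicate 2. After 5-aza the means of 9.60 ± 1.30 FPKM in DKO and 6.49 ± 1.45 FPKM in WT (SD, n = 2 each) had a ratio of 1.48, a log2 difference of 0.51 ± 0.17 and an adjusted p of 0.523 in limma, and the authors' deposited table gave 0.49 with an adjusted p of 0.781. The untreated means of 7.59 ± 0.721 FPKM in DKO and 3.52 ± 0.284 FPKM in WT (SD, n = 2 each) had a ratio of 2.16, a log2 difference of 0.93 ± 0.11 and an adjusted p of 0.117 in limma. For untreated Foxn1 the authors' deposited table gave a log2 fold change, DKO over WT, of 1.08 ± 0.21 with an adjusted p of 4.25e-05, rank 114 among its p-values. Leaving out WT replicate 1 lowered the 5-aza difference to 0.31. The 5-aza difference minus the untreated one was -0.42 ± 0.22 on the log2 scale, which did not pass the limma interaction test (adjusted p = 0.898).

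Foxq1, needed for the hair medulla in mice, had a different pattern in the 2 tables. After 5-aza it had 4.57 and 5.999 FPKM in DKO, against 3.62 and 2.10 FPKM in WT. Untreated it had 1.39 and 2.42 FPKM in DKO, against 1.42 and 2.23 FPKM in WT. The 5-aza libraries separated by genotype, while the untreated ones separated by replicate number, with both replicate 1 libraries low and both replicate 2 libraries high. Foxq1 was not alone in this. Untreated Dlx3 (74.6 and 86.6 FPKM in DKO, 65.8 and 96.0 FPKM in WT) and untreated Msx2 also had both replicate 2 libraries above both replicate 1 libraries. Untreated Dlx2 and Sp6 were higher in replicate 2 within each genotype, and the remaining factors kept no common order. The replicate 1 libraries are those with high Xist, and the replicate 2 libraries those with Ddx3y, a Y-linked gene (2.90 FPKM in DKO and 3.502 FPKM in WT), while after 5-aza low Xist and higher Ddx3y went with DKO, as high Foxq1 did. The part of these sex-linked differences in the values of Foxq1 or the other factors was not tested. The ratio was 1.85 after 5-aza (log2 difference 0.72 ± 0.23, limma adjusted p = 0.506) and 1.04 untreated (0.03 ± 0.23, limma adjusted p = 0.977). Leaving out WT replicate 2 brought the 5-aza difference to 0.44, and leaving out WT replicate 1 to 1.01. The interaction was 0.69 ± 0.37 (limma adjusted p = 0.904). The 4 untreated values rest on 149 to 246 reads each, the fewest of the 10 factors.

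The Wnt effector Lef1 had small differences between genotypes. After 5-aza it had 9.20 and 9.94 FPKM in DKO, against 9.40 and 8.39 FPKM in WT, and the groups overlapped. Untreated it had 8.95 and 8.49 FPKM in DKO, against 7.57 and 8.01 FPKM in WT, with both DKO libraries on top. The ratios were 1.08 after 5-aza and 1.12 untreated, with log2 differences of 0.10 ± 0.09 and 0.15 ± 0.09 (limma adjusted p = 0.801 and 0.6). With 3227 to 11283 reads per library, Lef1 was among the most closely measured of the 10.

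Of the BMP-responsive Msx pair, Msx1 was higher in every DKO library than in every WT library of its table, and Msx2 was not. Msx1 had 11.3 and 11.8 FPKM in DKO, against 10.3 and 8.94 FPKM in WT after 5-aza, and 28.2 and 24.7 FPKM in DKO, against 19.3 and 20.3 FPKM in WT untreated. The gap was clear untreated and small after 5-aza. After 5-aza the ratio was 1.20 and the log2 difference 0.24 ± 0.09 (limma adjusted p = 0.569), which was 0.14 without WT replicate 2 and 0.16 when scaled to reads in listed genes. The untreated means of 26.4 ± 2.44 FPKM in DKO and 19.8 ± 0.691 FPKM in WT (SD, n = 2 each) had a ratio of 1.34 and a log2 difference of 0.40 ± 0.12 (limma adjusted p = 0.335), and the authors' deposited table gave 0.39 with an adjusted p of 0.166. All 4 Msx1 values after 5-aza were below all 4 untreated values, a description across separately scaled tables. Msx2, which is needed in mice for shaft differentiation and acts upstream of Foxn1, had 22.7 and 20.5 FPKM in DKO, against 19.1 and 20.7 FPKM in WT after 5-aza. Untreated it had 17.4 and 18.4 FPKM in DKO, against 14.2 and 19.7 FPKM in WT. The groups overlapped in both tables. The log2 differences were 0.11 ± 0.09 after 5-aza and 0.09 ± 0.17 untreated (limma adjusted p = 0.787 and 0.895).

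Dermal papilla cells are the mesenchymal neighbours of the matrix. Their 12 markers, none at 0 in all libraries, summed to 25.9 and 56.6 FPKM in DKO and 78.6 and 34.5 FPKM in WT after 5-aza, and to 217 and 202 FPKM in DKO and 303 and 268 FPKM in WT untreated. Only 1 of the 12 had a positive difference in each table, not the same marker in both. Over all genes the difference was positive in 62.8% after 5-aza and in 53.8% untreated. The authors' deposited table called 0 lower after 5-aza (background 0.159%) and 7 lower untreated (background 0.486%). The 2 with the smallest p untreated were Corin, a protease of papilla cells (5.68 and 6.35 FPKM in DKO, against 13.6 and 13.5 FPKM in WT), and Inhba, an activin subunit (9.52 and 8.99 FPKM in DKO, against 18.6 and 15.8 FPKM in WT). By contrast all 9 basal and outer root sheath markers had a positive difference in both tables, and summed to 649 and 764 FPKM in DKO and 449 and 361 FPKM in WT after 5-aza, and to 870.1 and 979.7 FPKM in DKO and 492 and 593 FPKM in WT untreated. The 8 immune markers summed to 1.67 and 2.11 FPKM in DKO and 1.67 and 1.24 FPKM in WT after 5-aza, and to 13.5 and 16.9 FPKM in DKO and 4.84 and 7.46 FPKM in WT untreated. The 7 dermal fibroblast markers ranged from 69.5 FPKM summed in 1 WT library after 5-aza to 1363 FPKM in 1 untreated DKO library, and the 8 markers of interfollicular differentiation from 6.98 FPKM in 1 WT library after 5-aza to 300.1 FPKM in 1 untreated WT library. The part of these cell types in the values of the factors was not tested.

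Of the convergent Dlx1 and Dlx2 pair, homeodomain genes best known from forebrain and craniofacial development, Dlx2 was higher in every DKO library and Dlx1 was not. Dlx2 had 17.2 and 15.1 FPKM in DKO, against 10.98 and 13.3 FPKM in WT after 5-aza, and 13.7 and 14.5 FPKM in DKO, against 7.59 and 12.9 FPKM in WT untreated. In both tables WT replicate 1 was the lowest library and WT replicate 2 came near the DKO libraries. The ratios were 1.33 after 5-aza and 1.37 untreated, with log2 differences of 0.39 ± 0.12 (limma adjusted p = 0.496) and 0.46 ± 0.24 (limma adjusted p = 0.541). The untreated value rests on WT replicate 1: without it the difference was 0.12, and without WT replicate 2 it was 0.81. Dlx1, 9426 bases away, had 2.10 and 1.72 FPKM in DKO, against 1.46 and 1.75 FPKM in WT after 5-aza, and 1.89 and 1.28 FPKM in DKO, against 1.45 and 2.01 FPKM in WT untreated. Its groups overlapped in both tables, and its log2 differences were 0.16 ± 0.11 after 5-aza and -0.08 ± 0.17 untreated (limma adjusted p = 0.734 and 0.905). The overlapping antisense gene Dlx1as had 1.88 and 2.71 FPKM in DKO, against 1.45 and 1.59 FPKM in WT untreated (log2 difference 0.38 ± 0.15, limma adjusted p = 0.45). After 5-aza its groups overlapped, with 2.46 and 1.53 FPKM in DKO, against 2.02 and 2.19 FPKM in WT (-0.07 ± 0.17, limma adjusted p = 0.939).

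Dlx3, whose loss from the epidermis gives mice without hair, was the most abundant of the factors and showed no separation by genotype. It had 133 and 102 FPKM in DKO, against 101 and 126 FPKM in WT after 5-aza, and 74.6 and 86.6 FPKM in DKO, against 65.8 and 96.0 FPKM in WT untreated. In both tables the WT libraries spread at least as widely as the distance between the genotypes. The ratios were 1.03 after 5-aza and 0.997 untreated, and the log2 differences of 0.04 ± 0.20 and 0.02 ± 0.24 (limma adjusted p = 0.971 and 0.989) turned negative under other scalings. Its neighbour Dlx4 had 5.84 and 4.69 FPKM in DKO, against 5.10 and 6.14 FPKM in WT after 5-aza, and 6.71 and 6.50 FPKM in DKO, against 5.83 and 7.49 FPKM in WT untreated. The groups overlapped here too, with ratios of 0.937 after 5-aza and 0.992 untreated (limma adjusted p = 0.903 and 0.998). Dlx3 and Dlx4 were both high in DKO replicate 1 and WT replicate 2 after 5-aza. Within each genotype, Foxn1, Msx2, Dlx1 and Dlx2 were also higher in these libraries than in the other replicate. These are the libraries with the low melanocyte sums of 29.4 and 22.1 FPKM, and with the low dermal papilla and fibroblast sums. Whether any of these markers bear on Dlx3, Dlx4 or the factors that shared their library order was not tested.

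Sp6 showed the reverse library pattern after 5-aza and a separation by genotype untreated. After 5-aza it had 8.16 and 11.5 FPKM in DKO, against 12.0 and 8.27 FPKM in WT. The high libraries, DKO replicate 2 and WT replicate 1, were those with the high melanocyte sums of 139.7 and 97.6 FPKM. They also had the high dermal papilla and fibroblast sums. Within each genotype, Foxq1, Lef1 and Msx1 were also higher after 5-aza in these libraries than in the other replicate. Whether any of these markers bear on Sp6, Foxq1, Lef1 or Msx1 was not tested. Untreated it had 15.04 and 18.5 FPKM in DKO, against 9.995 and 14.2 FPKM in WT, so both DKO libraries were above both WT libraries. The ratio was 0.968 after 5-aza (log2 difference -0.04 ± 0.23, limma adjusted p = 0.975) and 1.38 untreated (0.45 ± 0.20, limma adjusted p = 0.48), and the authors' deposited table gave an untreated 0.45 with an adjusted p of 0.22. Leaving out WT replicate 1 lowered the untreated difference to 0.22, and leaving out WT replicate 2 brought it to 0.68. The interaction of -0.49 ± 0.34 did not pass (limma adjusted p = 0.938).

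Across the 2 tables, the interaction test asks whether the DKO to WT difference after 5-aza departs from the untreated one. None of the 10 factors passed it in limma (0 of 10, background 0.0191%, 3 of 15699 genes), and none had an unadjusted p under 0.05 (backgrounds 3.03% higher and 2.59% lower). Voom called 0 of 10 too. The difference of differences was positive in 4 of 10 (background 56.7%). Foxq1 at 0.69, Sp6 at -0.49 and Foxn1 at -0.42 had the widest differences of differences. Leaving out WT replicate 2 of the 5-aza libraries brought Foxq1 to 0.40 and Foxn1 to -0.22, leaving out WT replicate 1 of them brought Sp6 to -0.25, and leaving out WT replicate 2 of the untreated libraries brought Dlx2 to -0.42, so this order rests on single libraries. The median of the 10 was -0.06 beside 0.02 over all genes. With all libraries, the other 7 lay between -0.16 (Msx1) and 0.24 (Dlx1). Set side by side without a test, the means of Msx1, Dlx4 and Sp6 were lower after 5-aza than untreated in both genotypes, and those of Foxn1, Foxq1, Lef1, Msx2, Dlx2 and Dlx3 were higher. Dlx1 was higher after 5-aza in DKO and lower in WT.

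**Figure D4:**
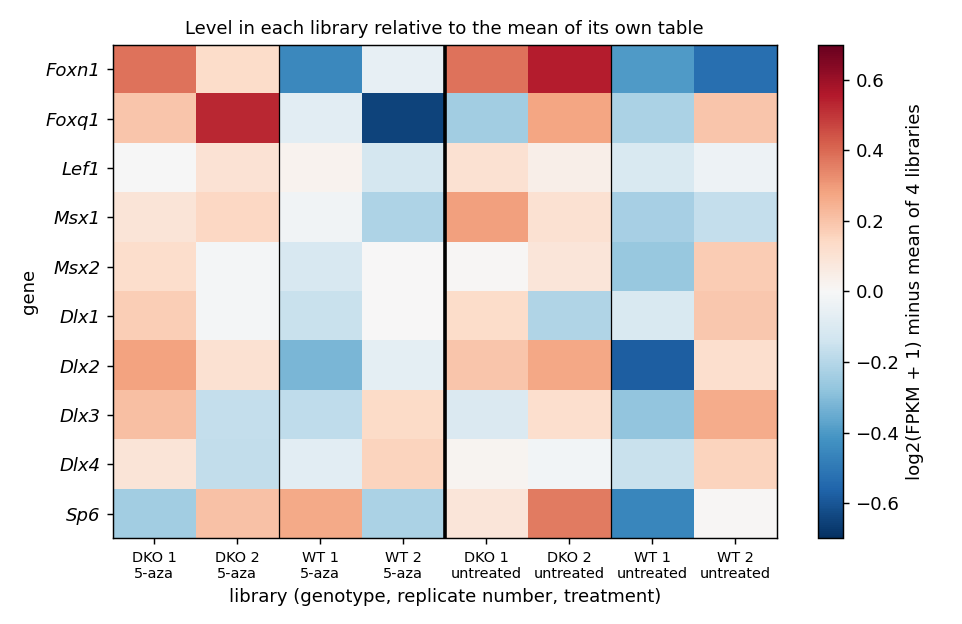
Each cell is log2(FPKM + 1) of a factor (rows) in a library (columns) minus the mean of the 4 libraries of its own table; red is above, blue below, and the thick line separates the 5-aza table (left) from the untreated one. Foxn1 is red in all 4 DKO columns and blue in all 4 WT columns. Untreated Foxq1 and Dlx3 alternate with the replicate number, and 5-aza Dlx3 and Sp6 run opposite to each other.

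How the factors varied together was described by Pearson's r over the 8 libraries, after subtracting each gene's mean within its table. The 2 libraries of a group share genotype and treatment, so these are descriptions with no test. Lef1 and Msx1 ran most closely together (r = 0.932), followed by Dlx3 with Msx2 (0.891), Dlx2 with Msx2 (0.89) and Dlx3 with Dlx4 (0.879). The neighbours Dlx1 and Dlx2 had r = 0.456, and Foxn1 ran closest to Msx1 (0.756). Among 15698 other genes kept in both tables, the 2 most like each factor had r of 0.977 or more: Ogt and Mfsd6 for Foxn1 (0.991 each), Mdfic and Dxo for Foxq1 (0.992 and 0.979), Heg1 and Atp6v0d1 for Lef1 (0.983 and 0.977), Itpk1 and Jrkl for Msx1 (0.983 and 0.982), and Trmt6 and Rsl1d1 for Msx2 (0.988 and 0.986). For the rest they were Zfp207 and Lcat for Dlx1 (0.992 and 0.987), D130019J16Rik and Gpkow for Dlx2 (0.998 and 0.985), Ints8 and Znhit6 for Dlx3 (0.99 and 0.988), Bag4 and Ube2c for Dlx4 (0.983 and 0.978), and Aldoa and Psma5 for Sp6 (0.997 and 0.987). No factor was among the 2 genes closest to another.

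Genes that act before the factors were taken as a list of 24 upstream signals and cofactors, all 24 tested. None passed limma in either table. After 5-aza 22 of 24 differences were positive, with a median of 0.16 (0.03 over all genes), 5 had an unadjusted p under 0.05 on the higher side and 0 on the lower, and the authors' deposited table called 2 higher. Untreated 17 of 24 were positive, with a median of 0.14 (0.01 over all genes), 6 higher and 1 lower, and the authors' deposited table called 5 higher. Over all genes, the difference was positive in 62.8% after 5-aza and in 53.8% untreated. At that unadjusted p, 6.64% of all genes were higher and 2.3% lower after 5-aza, and 6.72% and 4.73% untreated. The authors' deposited table called 0.54% of all genes higher after 5-aza and 0.793% untreated. Hoxc13, a homeodomain factor that acts on Foxq1 and shaft keratin genes in mice, had 22.0 and 23.1 FPKM in DKO, against 12.99 and 11.6 FPKM in WT after 5-aza, and 24.4 and 30.7 FPKM in DKO, against 9.49 and 15.8 FPKM in WT untreated. Its groups were apart in both tables, and the authors' deposited table gave adjusted p of 2.18e-07 after 5-aza and 7.59e-06 untreated. Tle4, a Groucho corepressor that can bind LEF1, had 3.20 and 3.29 FPKM in DKO, against 2.04 and 1.68 FPKM in WT after 5-aza, and 5.38 and 6.05 FPKM in DKO, against 3.36 and 3.67 FPKM in WT untreated. Its relative Tle2 lay the other way, at 0.295 and 0.602 FPKM in DKO, against 1.07 and 0.539 FPKM in WT after 5-aza, and 1.97 and 1.47 FPKM in DKO, against 4.18 and 2.74 FPKM in WT untreated. Wnt3a, a Wnt ligand at a low level, was at 0.392 and 0.464 FPKM in DKO, against 0.159 and 0.191 FPKM in WT untreated. It was not called in the authors' deposited table (DESeq2 adjusted p = 0.999). The 5 called there untreated were Hoxc13, Tle4, Wnt10a, Wnt3 and Bmp2. Untreated Wnt10a had 9.42 and 12.3 FPKM in DKO, against 4.69 and 6.01 FPKM in WT.

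Relatives of the factors (17 genes of the Dlx, Msx, Sp, Tcf and Foxn families, 13 tested) had medians near 0. The median log2 difference was 0.02 after 5-aza (0.03 over all genes), with 7 of 13 positive (background 62.8%). It was -0.08 untreated (0.01 over all genes), with 4 of 13 positive (background 53.8%). None passed limma or was called in the authors' deposited table. At an unadjusted p under 0.05 there were 0 after 5-aza (backgrounds 6.64% higher and 2.3% lower). Untreated there were 0 higher (background 6.72%) and 1 lower (background 4.73%). The 1 was Sp7, known as osterix from bone, with 1.93 and 1.81 FPKM in DKO, against 2.87 and 2.60 FPKM in WT.

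Genes reported to act downstream of the factors were described as 2 lists. Of 13 hair shaft keratins, 12 were tested and none passed limma in either table. After 5-aza 11 of 12 were positive (background 62.8%) with a median of 0.36 (0.03 over all genes). At an unadjusted p under 0.05, 2 were higher (background 6.64%), and the authors' deposited table called 1, Krt35 (background 0.54%). The libraries were not ordered by genotype for most of the list: DKO replicate 1 lay below WT replicate 1 in 10 of 12, and both DKO libraries lay above both WT libraries only in Krt35 and Krt84. The list summed to 53.5 and 115 FPKM in DKO and 63.5 and 39.1 FPKM in WT after 5-aza. It was high in DKO replicate 2 and WT replicate 1, as the melanocyte, dermal papilla and dermal fibroblast markers were. The part of those markers in the keratin values was not tested. Krt35, a type I keratin of the early shaft, had 26.5 and 37.1 FPKM in DKO, against 17.9 and 17.5 FPKM in WT after 5-aza. Untreated, all 12 had a positive difference (background 53.8%), with a median of 2.49 (0.01 over all genes). Both DKO libraries lay above both WT libraries in 11 (background 24.1%). An unadjusted p under 0.05 on the higher side was found for 10 (background 6.72%), and the authors' deposited table called 9 higher (background 0.793%). Krt34, a type I shaft keratin, had 13.1 and 19.8 FPKM in untreated DKO, against 1.12 and 1.70 FPKM in untreated WT (log2 difference 2.84 ± 0.23, limma adjusted p = 0.0831). Krt81, a type II shaft keratin, had 25.7 and 34.8 FPKM in untreated DKO, against 1.77 and 3.38 FPKM in untreated WT. The log2 difference of Foxn1, 0.93, was the largest of the 10 factors in untreated libraries, beside this keratin median of 2.49.

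The second list held 20 genes reported to lie downstream of these factors, of which 16 were tested after 5-aza and 17 untreated. It includes the factor Foxq1, shares Krt86 with the keratin list, and shares Hoxc13 and Wnt5a with the upstream list. Its counts are therefore not separate from those of the lists above. None passed limma. The median log2 difference was 0.23 after 5-aza (0.03 over all genes) and 0.07 untreated (0.01 over all genes). Differences were positive in 12 of 16 after 5-aza (background 62.8%) and in 10 of 17 untreated (background 53.8%). At an unadjusted p under 0.05, 3 were higher and 0 lower after 5-aza (backgrounds 6.64% and 2.3%). Untreated, 5 were higher and 1 lower (backgrounds 6.72% and 4.73%). The authors' deposited table called 1 higher after 5-aza, Hoxc13 (background 0.54%), and 3 higher untreated, Krt86, Hoxc13 and Krtap8-1 (background 0.793%). Of these, Hoxc13 and Krt86 were already counted in the lists above. Krtap8-1, a keratin-associated protein of the shaft cortex, had 70.6 and 94.6 FPKM in untreated DKO, against 6.50 and 12.0 FPKM in untreated WT. Krt86, the type II shaft keratin counted in both lists, had 14.1 and 19.3 FPKM in untreated DKO, against 1.501 and 2.83 FPKM in untreated WT. Fgf2, a growth factor gene, lay the other way with 1.98 and 1.83 FPKM in untreated DKO, against 2.45 and 2.91 FPKM in untreated WT. Padi3, a peptidylarginine deiminase of the medulla and inner root sheath, had 4.497 and 6.37 FPKM in DKO, against 9.89 and 6.99 FPKM in WT after 5-aza.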

How the data were processed

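RNA sequencing values of 8 libraries in 4 groups were used, grouped by the genotype and treatment labels. The authors used Trim Galore, STAR, HTSeq and DESeq2 on GRCm38 or mm10, per the submitters' processing notes. The labels name 2 library kits, one for mRNA and one for ribosome-depleted total RNA, without tying either to a group, and do not give the sort markers.

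The authors deposited 2 tables of FPKM per library, a unit read from the values: FPKM times length came to whole reads within 0.001 for every gene. Mean reads after size-factor scaling are deposited as a signal. The authors' DESeq2 results comprise log2 fold changes with errors (WT over DKO, turned round here), a score and p-values, and each row has a length in bases (other).

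Here, log2(FPKM + 1) was tested by limma 3.58.1 (R 4.3.3; trended variance, two-sided), with Benjamini-Hochberg adjustment over all genes kept and a threshold of 0.05. Genes needed 10 reads at the median library size in 2 libraries and 15 in total, which left 16856 after 5-aza, 17339 untreated and 15699 in both. The fit was also run on simulated reads with planted changes, as a check of the code. Their spread was set and not taken from these libraries, so that run does not give the power here. Alternatives were other pseudocounts, filters, scalings, voom, a replicate block, all libraries in 1 fit and leaving out each library. FPKM was scaled to library totals, so reads outside genes lower all values of a library. The 10 factors are all named. Of the other lists, genes past the adjusted threshold are named, and at most the 2 with the smallest p per direction and comparison. In the upstream and second downstream lists, genes called in the authors' deposited table are named too. The factors and lists were chosen with earlier results of these data known.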

Additional observations from a re-analysis of the deposited data

How the results depend on the processing

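No factor passed an adjusted p of 0.05 in limma under any alternative. Of 430 recomputed differences of single factors, 386 kept their direction and 44 changed sign. Foxn1 came closest, with adjusted p from 0.0523 (voom) to 0.655 untreated and differences of 0.84 to 1.01 without 1 library. Genes called over all genes moved more. Untreated, 1 gene was called, 8 with a pseudocount of 0.1, 77 with voom, 111 with all 8 libraries in 1 fit, and 0 without a filter, with a filter of mean FPKM of at least 0.1, without a variance trend, or without any 1 library (0 to 0). After 5-aza, 0 were called, and 1 with all 8 libraries in 1 fit. For the interaction, 3 were called, 1 with a pseudocount of 0.1, without a variance trend or with voom, and 0 to 2 without 1 library. At an unadjusted p under 0.05 after 5-aza, 1120 genes were higher and 387 lower as deposited, 747 and 704 when scaled to reads in listed genes, and 816 and 587 under median-ratio scaling. The cause was not tested.

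The replicate numbers pair nothing by label: deviations of same-numbered libraries correlated at -0.589 after 5-aza and 0.0317 untreated. With the replicate block, 13 genes were called untreated and 0 for the interaction, and Foxn1 untreated had an adjusted p of 0.195 in limma. In the untreated libraries this block coincides with the split in Xist and Ddx3y, so replicate number and sex-linked transcripts cannot be told apart there. After 5-aza, the block left 0 of the 3 factors with an unadjusted p under 0.05. Pairing the numbers crosswise after 5-aza, chosen after seeing the data, called 91.

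Sign changes were limited to small differences. Untreated Dlx3 was -0.021 scaled to reads in listed genes, -0.010 under median-ratio scaling and -0.023 with voom, and untreated Foxq1 was -0.028 with voom. Dlx3 after 5-aza was -0.050, -0.027 and -0.053 under the same 3 settings. In the interaction, Msx2 was -0.032, -0.020 and -0.032 and Dlx3 -0.029, -0.017 and -0.029. In the interaction without 1 library, Foxq1 ranged from 0.40 to 0.98, Sp6 from -0.73 to -0.25 and Foxn1 from -0.62 to -0.22. Without 1 library, the untreated ranges were -0.23 to 0.29 for Foxq1, -0.13 to 0.31 for Msx2, -0.25 to 0.088 for Dlx1, -0.25 to 0.29 for Dlx3 and -0.16 to 0.16 for Dlx4. After 5-aza they were -0.15 to 0.23 for Dlx3, -0.22 to 0.052 for Dlx4 and -0.28 to 0.20 for Sp6. In the interaction they were -0.12 to 0.024 for Lef1, -0.20 to 0.24 for Msx2, -0.42 to 0.27 for Dlx2, -0.25 to 0.29 for Dlx3 and -0.24 to 0.076 for Dlx4. A fit without 1 library leaves a lone library in its group, assumed to vary like the others. With 2 libraries a group, a log2 difference as large as the 0.93 of untreated Foxn1 did not pass.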
